A study of Mus musculus with 8 samples.

Results

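The genes that carry, transmit and restrain the TGF-β signal inside the cell were followed in primary murine cardiac fibroblasts, the matrix-producing cells of the heart. They were 10 genes chosen by name, 10 of the 22274 genes in the table: the receptor-activated SMADs Smad1, Smad2 and Smad3, the common partner Smad4, the inhibitory SMADs Smad6 and Smad7, the nuclear corepressors Ski, Skil and Tgif1, and Pmepa1, a membrane protein that keeps SMADs from the receptor. All 10 passed the filter on low counts, and no member shared exonic bases with another annotated gene. RNA was sequenced from 4 libraries labelled GFP, which received an empty adenoviral vector, and 4 libraries labelled OEIRF7, which received a vector for IRF7. Both groups then received TGF-β at 5 ng/ml and were kept in it for 24 h, so the comparison is between vectors in stimulated cells and holds no unstimulated sample. The vectors named in the study's reagent list use the CMV promoter and carry EGFP, and the IRF7 vector carries the human gene. Neither the strain and age of the mice nor whether the libraries came from separate cultures is given in the labels, so p-values measure the spread between these libraries, which may be technical. The study's legend speaks of 3 biological replicates without saying which of the libraries it means, and none of the 4 in either group was left out here.

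In this pathway TGF-β binds a pair of kinase receptors, which phosphorylate Smad2 and Smad3. These join Smad4 and enter the nucleus, where they switch on genes of the myofibroblast, such as collagens and smooth muscle actin. Bone morphogenetic proteins (BMPs) use related receptors and signal through Smad1 and its relatives. The signal also switches on its own brakes: Smad7 blocks TGF-β receptors and draws ubiquitin ligases to them, Smad6 acts mainly on the BMP branch, and Ski and SnoN (the protein of Skil) hold SMAD complexes inactive on DNA.

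Total counts per library lay between 24888589 and 27095611 in the libraries labelled GFP and between 24454801 and 28658826 in those labelled OEIRF7, and a member had from 517 to 19466 counts in a library. Mouse Irf7 was lower in the libraries labelled OEIRF7, at 15.2 ± 0.822 counts after scaling to library size (CPM) against 118 ± 24 CPM (SD, n = 4 per group), which goes against the label if the counts include the transgene and does not check it if the transgene is human. Directions are therefore given between libraries as labelled. All 8 fibroblast markers were above 1 CPM, with summed levels of 2880 to 2980 CPM in the libraries labelled GFP and 2500 to 2610 CPM in those labelled OEIRF7. Endothelial markers summed to 201 to 214 and 203 to 230 CPM, macrophage markers to 267 to 317 and 324 to 361 CPM, mural markers to 65.6 to 72.3 and 77.3 to 97.3 CPM, epicardial markers to 72.3 to 88.6 and 58.2 to 65.8 CPM, and cardiomyocyte markers to at most 13.9 and 9.96 CPM. Sums can hide opposite changes. At an adjusted p under 0.05 (edgeR), 1 fibroblast marker was higher and 5 were lower, and 3 macrophage markers were higher and 0 lower. Of the mural markers 2 were higher and 1 lower, and of the epicardial markers 2 were higher and 1 lower. Tcf21 and Col6a1 (fibroblast) were 2.52-fold and 2.86-fold lower in the libraries labelled OEIRF7, and Pdgfra (fibroblast) was 1.19-fold higher. Cspg4 (mural) was 2.83-fold higher in the libraries labelled OEIRF7 and Notch3 (mural) 3.05-fold lower. Krt19 (epicardial) was 3.89-fold higher and Upk3b (epicardial) 2.49-fold lower. In bulk RNA, fewer cells of a type and less RNA per cell cannot be told apart, and the part of other cell types in the results below was not tested except where a value is given.

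Among the 10 members, most changed little between the groups, and the larger changes were in Smad6, Tgif1 and Smad7, which restrain the signal. The other brakes, Ski, Skil and Pmepa1, were among those that changed little. Smad6 was 2.99-fold lower in the libraries labelled OEIRF7, Tgif1 1.62-fold higher and Smad7 1.31-fold higher. Among the other 7 members, the fitted changes were all within 1.14-fold in either direction. At an adjusted p under 0.05 (edgeR's quasi-likelihood test, Benjamini-Hochberg adjustment over 13533 genes), 8 of 10 members were called, 4 higher and 4 lower. Over all tested genes 58.9% were called, 29.0% higher and 29.9% lower, so a call by itself was common in these libraries. With a fold change past 1.5 required as well, 2 of 10 members were called, Tgif1 higher and Smad6 lower, against 18.9% of all tested genes. The CPM of the groups did not overlap in 5 of 10 members, against 53.8% of all tested genes. The median size of the log2 fold change was 0.15 over the members and 0.25 over all tested genes, and the signed medians were 0.06 and 0.00.

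**Figure D1:**
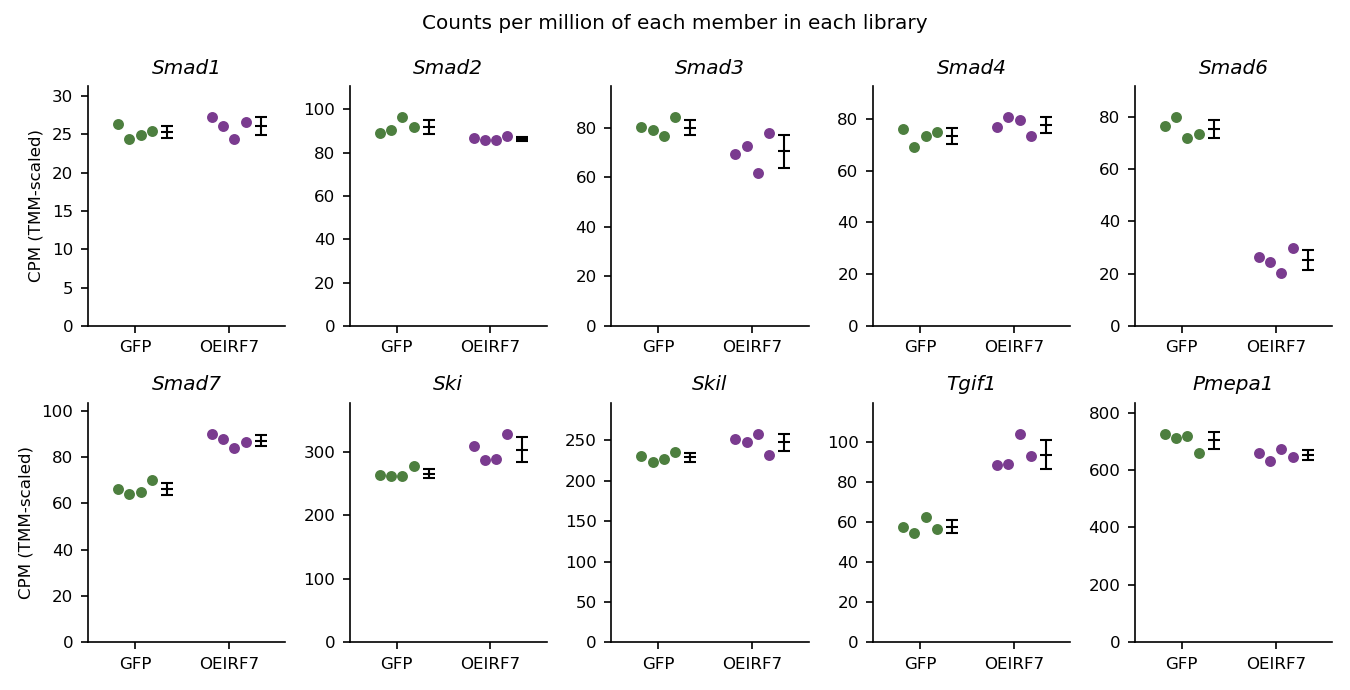
CPM of the 10 members, scaled by TMM, in each of the 4 libraries labelled GFP (green) and the 4 labelled OEIRF7 (purple); each panel has its own linear axis from 0, and bars give mean and SD. Smad6 dropped from 71.8 to 79.8 CPM into the range 20.3 to 29.8 CPM, Tgif1 and Smad7 lay higher in every library labelled OEIRF7, and Smad1 and Smad4 overlapped between the groups.

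The promoters of the genes with the largest fall and the largest rise are shown because these are the genes on which the comparison turns. They are the 250 bases before the RefSeq start (GRCm38.p6, minus strand, written 5′ to 3′), with the SMAD box CAGAC and the TGIF box TGTCA in capitals on either strand. Smad6 has 1 start, at chr9:64022060-64022309, and Tgif1 has 5, of which the 2 farthest upstream, at chr17:70853533-70853782 and chr17:70851735-70851984, are printed.
Smad6: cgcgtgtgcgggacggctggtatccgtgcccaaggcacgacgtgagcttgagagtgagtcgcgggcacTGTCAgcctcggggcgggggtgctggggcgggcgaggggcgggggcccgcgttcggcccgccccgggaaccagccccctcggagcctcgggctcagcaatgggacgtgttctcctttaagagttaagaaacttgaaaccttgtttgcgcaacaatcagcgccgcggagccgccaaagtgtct
Tgif1 first start: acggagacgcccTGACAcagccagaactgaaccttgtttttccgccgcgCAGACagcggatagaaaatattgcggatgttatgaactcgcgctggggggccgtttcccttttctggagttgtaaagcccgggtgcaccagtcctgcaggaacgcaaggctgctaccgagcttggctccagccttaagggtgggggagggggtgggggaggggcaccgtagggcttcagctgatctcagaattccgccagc
Tgif1 second start: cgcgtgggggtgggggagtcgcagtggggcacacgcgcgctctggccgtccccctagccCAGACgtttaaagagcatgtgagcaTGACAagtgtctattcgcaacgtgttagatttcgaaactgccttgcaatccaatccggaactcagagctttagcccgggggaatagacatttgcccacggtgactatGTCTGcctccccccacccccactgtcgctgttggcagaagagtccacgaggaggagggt
The Smad6 window held 1 TGIF box, which begins 182 bases before the start, and no SMAD box, and its GC content was 66.8%. The first Tgif1 window held 1 SMAD box and 1 TGIF box, and the second held 2 SMAD boxes and 1 TGIF box. Of the Tgif1 windows not printed, the third held neither box. The fourth held 1 SMAD box and no TGIF box, and the fifth held 2 TGIF boxes and no SMAD box. Across 32817 RefSeq promoter windows of this length, 42.2% held a SMAD box and 39.9% a TGIF box, so either match is common. The palindrome GTCTAGAC (0.168% of windows) and the interferon response element (GAAA, any 2 bases, GAAA; 2.97% of windows) were found on neither strand of the 9 windows of Smad1, Smad3, Smad6, Ski and Tgif1, and the GC-rich box GGCGCC (9.59% of windows) was found in that of Ski. These matches describe the letters of the windows and say nothing of which factor bound there.

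Smad6 showed the largest change among the members. It encodes an inhibitory SMAD that binds activated BMP receptors and competes with Smad4 for Smad1, and it is itself switched on by BMP signals. It had 76.5, 79.8, 71.8 and 73.4 CPM in the libraries labelled GFP, replicates 1 to 4, and 26.3, 24.5, 20.3 and 29.8 CPM in those labelled OEIRF7. The highest library labelled OEIRF7 thus lay well below the lowest one labelled GFP. On the log2 scale the difference was -1.58 (standard error, SE, 0.0821, 95% interval -1.76 to -1.40, adjusted p = 7e-10 from edgeR), and permuting the library labels for log2 CPM (exact, two-sided) gave p = 0.029, the smallest that 4 against 4 libraries allow. In size, this change was at percentile 96.8 of all tested genes, where those of Tgif1 and Smad7 were at 84.1 and 66.5. Smad6 is abundant in endothelium, and of 6 endothelial marker genes, all detected, 3 were higher in the libraries labelled OEIRF7 (Kdr, Vwf and Emcn, with log2 fold changes of 0.79, 0.49 and 0.29) and 1 was lower (Cdh5, at -0.11, a call lost under 8 of 16 alternatives). Pecam1 and Tie1, at -0.01 and 0.15, did not pass the test. Summed over the list, their level was 201 to 214 CPM in the libraries labelled GFP and 203 to 230 CPM in those labelled OEIRF7, and the part of endothelial cells in the Smad6 difference was not tested.

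Smad7, the inhibitory SMAD of the TGF-β branch and a classic early target of Smad3, moved the other way. Its CPM were 66.1, 64.3, 64.8 and 70 in the libraries labelled GFP and 90.1, 87.7, 84.1 and 86.6 in those labelled OEIRF7, with no overlap. The log2 fold change was 0.39 (SE 0.0393, 95% interval 0.31 to 0.48, adjusted p = 7.1e-07 from edgeR; exact permutation p = 0.029). In the libraries labelled GFP the 2 inhibitors had nearly equal levels per length, at 25.1 ± 1.19 FPKM (fragments scaled to transcript length and library size by the authors) for Smad6 and 25.3 ± 1.32 FPKM for Smad7 (SD, n = 4). In those labelled OEIRF7 they had 8.57 ± 1.37 and 33.5 ± 2.13 FPKM (SD, n = 4). Smad7 accordingly made up 50.2% ± 2.1 of their summed FPKM in the libraries labelled GFP, with a range of 47.9% to 52.8%, and 79.7% ± 2.32, with a range of 76.5% to 81.8%, in those labelled OEIRF7 (SD, n = 4). The summed level itself moved less, from 50.4 ± 1.31 to 42.1 ± 3.03 FPKM (SD, n = 4).

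Whether paralogs changed by unequal amounts was tested on the log2 ratio of their CPM within each library, for 3 pairs. The ratio of Smad7 over Smad6 was 3.96-fold higher in the libraries labelled OEIRF7, a difference of 1.99 on the log2 scale, with values from 1.54 to 2.05 against -0.31 to -0.07. Its exact two-sided permutation p was 0.029, the smallest possible, and 0.086 after Benjamini-Hochberg adjustment over the 3 pairs. With 1 such pair among 3 the design could not pass 0.05. Since Smad6 and Smad7 moved in opposite directions without overlap, their ratio had to separate the groups. This p thus adds nothing to the results of the single genes. Smad3 over Smad2 and Skil over Ski differed by -0.10 and -0.08 on the log2 scale, within the spread of the libraries (adjusted exact permutation p = 0.39 and 0.40).

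**Figure D2:**
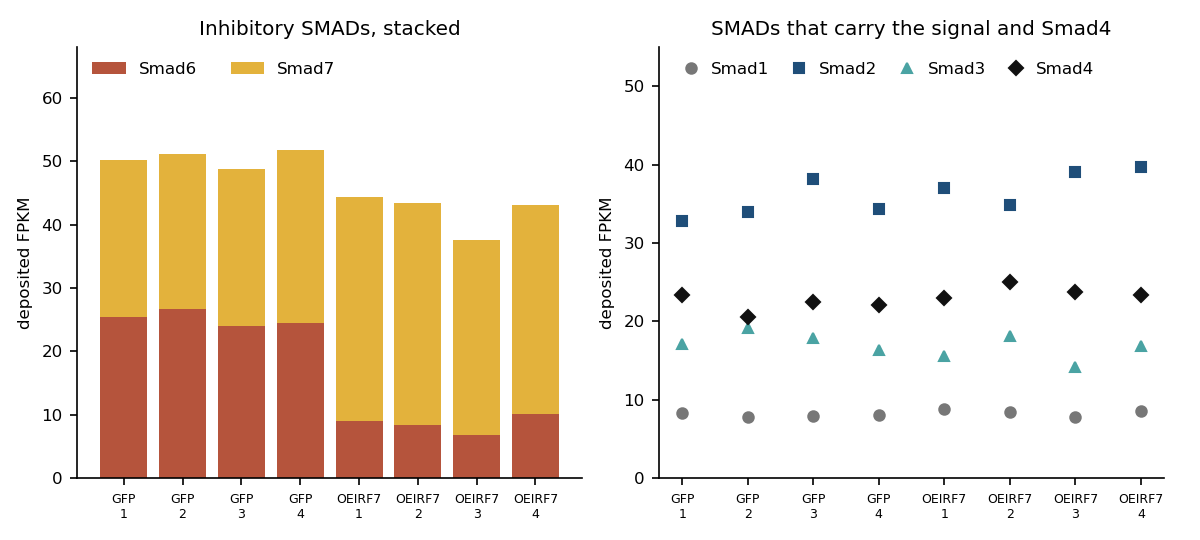
Deposited FPKM in each library. Left, Smad6 and Smad7 stacked: Smad7 made up 47.9% to 52.8% of the bar in the libraries labelled GFP and 76.5% to 81.8% in those labelled OEIRF7. Right, the receptor-activated SMADs and Smad4, which kept their order in both groups, with Smad2 highest and Smad1 lowest.

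The receptor-activated SMADs of the TGF-β branch were a little lower on counts. Smad3 had 80.3, 78.9, 76.7 and 84.2 CPM in the libraries labelled GFP and 69.4, 72.6, 61.8 and 77.8 CPM in those labelled OEIRF7. The groups overlapped by the fourth replicate labelled OEIRF7, and the log2 fold change was -0.19 (SE 0.0584, adjusted p = 0.013 from edgeR; exact permutation p = 0.057). In limma on log2(FPKM + 1) its log2 fold change was -0.12 and the call was lost (adjusted p = 0.19). Smad2 had 88.9 to 96.3 CPM in the libraries labelled GFP and 85.6 to 87.6 CPM in those labelled OEIRF7, and its log2 fold change of -0.09 was just past the threshold (SE 0.0356, adjusted p = 0.049 from edgeR). This call was lost or turned round under 13 of 16 alternatives. On the deposited FPKM, Smad2 had 34.8 ± 2.32 and 37.7 ± 2.18 FPKM (SD, n = 4), the opposite direction, and limma on log2(FPKM + 1) gave an adjusted p of 0.11. Summed over Smad2 and Smad3, the level was 52.5 ± 2.76 FPKM in the libraries labelled GFP and 53.9 ± 1.81 FPKM in those labelled OEIRF7 (SD, n = 4).

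Smad4, the common partner of both branches, and Smad1, which carries BMP signals, did not pass the test. Smad4 had 69.0 to 76.0 CPM in the libraries labelled GFP and 73.4 to 80.6 CPM in those labelled OEIRF7 (log2 fold change 0.08, 95% interval -0.01 to 0.17, adjusted p = 0.12 from edgeR). Smad1 had 24.4 to 26.3 CPM in the libraries labelled GFP and 24.4 to 27.2 CPM in those labelled OEIRF7 (log2 fold change 0.04, 95% interval -0.07 to 0.16, adjusted p = 0.50 from edgeR).

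Among the nuclear corepressors, Tgif1 stood out. It encodes a homeodomain protein that recruits histone deacetylases to Smad2 and Smad3 complexes. Its CPM were 57.6, 54.3, 62.3 and 56.7 in the libraries labelled GFP and 88.3, 89.1, 104 and 92.7 in those labelled OEIRF7. Every library labelled OEIRF7 was higher, and the log2 fold change was 0.70 (SE 0.0556, 95% interval 0.58 to 0.82, adjusted p = 6.8e-08 from edgeR; exact permutation p = 0.029). The table gives 1 value per gene, so its 5 starts could not be told apart.

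Ski and Skil, proto-oncogenes whose proteins bind Smad2, Smad3 and Smad4 and are destroyed when the signal arrives, were higher by small amounts. Ski had 263, 261, 261 and 277 CPM in the libraries labelled GFP and 309, 287, 288 and 328 CPM in those labelled OEIRF7, with no overlap (log2 fold change 0.19, SE 0.0433, adjusted p = 0.0017 from edgeR). Skil had 223 to 235 CPM and 232 to 258 CPM, and the groups overlapped (log2 fold change 0.11, SE 0.0367, adjusted p = 0.018 from edgeR). Without replicate 1 labelled OEIRF7 the adjusted p of Skil was 0.055 (edgeR). Together Ski and Skil had 91.6 ± 3.33 FPKM in the libraries labelled GFP and 105 ± 2.87 FPKM in those labelled OEIRF7 (SD, n = 4).

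Pmepa1, a strong TGF-β target whose protein captures Smad2 and Smad3 at membranes, was the most abundant member by far. It had 726, 712, 718 and 660 CPM in the libraries labelled GFP and 658, 632, 673 and 644 CPM in those labelled OEIRF7. The groups overlapped by replicate 4 labelled GFP, and the log2 fold change on counts was -0.11 (SE 0.0346, adjusted p = 0.012 from edgeR; exact permutation p = 0.057). On the deposited FPKM the direction turned, with 186.75 to 208.38 FPKM in the libraries labelled GFP and 198.87 to 214.90 FPKM in those labelled OEIRF7, and limma on log2(FPKM + 1) gave an adjusted p of 0.36. The median of all genes moved by 0.03 between these scales, and the cause of the turn was not tested.

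**Figure D3:**
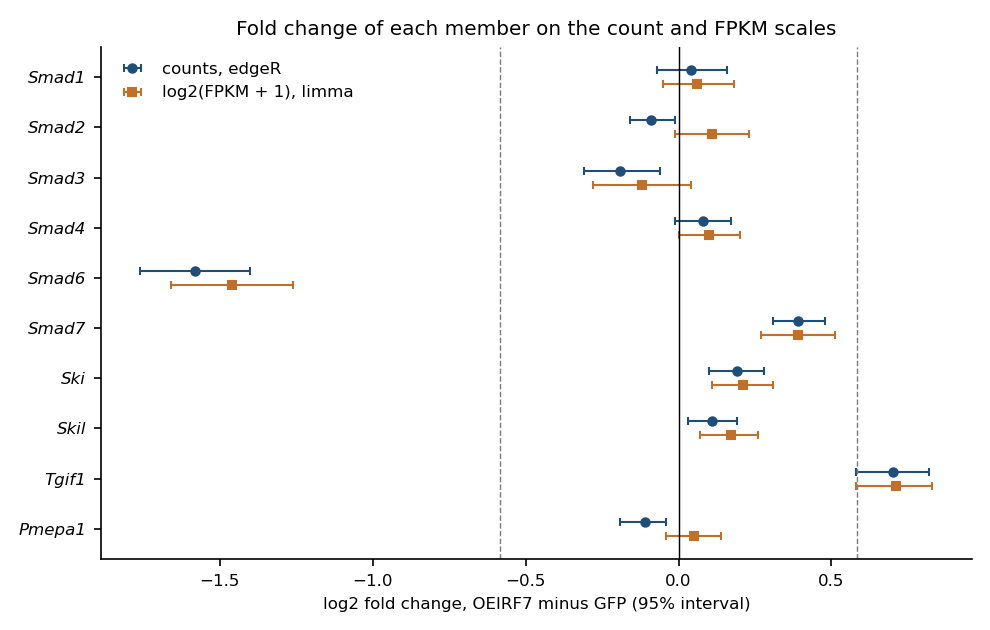
Log2 fold change of each member, libraries labelled OEIRF7 minus those labelled GFP, with 95% intervals, from counts (blue circles, edgeR) and from log2(FPKM + 1) (orange squares, limma); dashed lines mark 1.5-fold. Both scales put Smad6 near -1.5 and Tgif1 near 0.7, while the points of Smad2 and Pmepa1 lie on opposite sides of 0.

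Ordered by FPKM in the libraries labelled GFP, Pmepa1 came first at 202, followed by Ski at 48.4, Skil at 43.2, Tgif1 at 38.5, Smad2 at 34.8, Smad7 at 25.3, Smad6 at 25.1, Smad4 at 22.1, Smad3 at 17.6 and Smad1 at 8.04 FPKM. Neighbours whose libraries overlapped were Skil and Tgif1, Tgif1 and Smad2, and Smad7 and Smad6. In the libraries labelled OEIRF7, Tgif1 came second at 63.6 ± 4.67 FPKM, overlapping with Ski at 56.3 ± 3.74 FPKM, and Smad6 came ninth at 8.57 ± 1.37 FPKM, overlapping with Smad1 at 8.46 ± 0.422 FPKM (SD, n = 4). By their means, the corepressors and Pmepa1 filled the first 4 places in both groups, ahead of the SMADs.

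Smad3 and Smad6 are neighbours on the minus strand of chromosome 9, from 63646767 to 63757994 and from 63953076 to 64022059 (GRCm38), with a gap of 195 kb that holds no tested gene. Smad6 had a log2 fold change of -1.58 and Smad3 of -0.19, so the pair shared a direction but not a size. Smad4, Smad7 and Smad2 all lie on chromosome 18, with Smad7 and Smad2 separated by 846 kb, and had log2 fold changes of 0.08, 0.39 and -0.09. The other members lie on chromosomes 2, 3, 4, 8 and 17.

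Ligands and receptors lie upstream of the SMADs, and of 12 such genes, all tested, 3 were higher and 4 lower, with a median log2 fold change of -0.05. That makes 7 of 12 called, near the 58.9% of all tested genes. Tgfb1, the ligand added to the cultures as protein, rose 2.51-fold as a transcript, from 63.9 ± 3.40 to 161 ± 3.06 CPM (SD, n = 4). Tgfb2 fell 2.93-fold, from 91.5 ± 5.33 to 31.2 ± 1.76 CPM, and Tgfb3 fell 1.71-fold, from 153 ± 13.1 to 89.6 ± 8.57 CPM (SD, n = 4). The receptors were split, since Tgfbr2, which binds the ligand first, was 1.49-fold lower and Bmpr1a 1.21-fold lower, while the signalling partner Tgfbr1 was 1.37-fold and the coreceptor Tgfbr3 1.53-fold higher. All 7 had an adjusted p of 1.1e-05 or less (edgeR).

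A list of 14 genes held regulators of SMAD anchoring and turnover and also the decoy receptor Bambi. Of these 14, 7 were higher and 5 lower, with a median log2 fold change of 0.11. A call was thus made for 12 of 14, where 58.9% of all tested genes were called. Bambi, a decoy receptor without a kinase, rose 3.12-fold from a low level, from 4.14 ± 0.583 to 12.9 ± 1.59 CPM (SD, n = 4). Smurf2, a ubiquitin ligase that Smad7 brings to the receptor, rose 1.70-fold, from 263 ± 12.5 to 447 ± 10.5 CPM, and its relative Smurf1 rose 1.20-fold (SD, n = 4). Trim33, a ligase of Smad4, rose 1.22-fold. The deubiquitinases Usp11 and Usp9x fell 2.24-fold and 1.44-fold, the ligase Wwp1 fell 1.33-fold, and Zfyve9, the anchor that presents Smad2 and Smad3 to the receptor, fell 1.16-fold. Usp11 was low in every library, with at most 81 counts.

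Nuclear partners and the remaining SMADs numbered 10, of which 9 were tested, and 1 was higher and 4 lower, with a median log2 fold change of 0.01. Called were 5 of 9, against 58.9% of all tested genes. Kat2b, an acetyltransferase that assists SMADs, fell 1.88-fold, and Smad9, a relative of Smad1, fell 1.85-fold, from 5.75 ± 0.831 to 3.11 ± 0.322 CPM (SD, n = 4). Tgif2 and Ncor1, both corepressors, fell 1.23-fold and 1.19-fold, and the corepressor Sin3a rose 1.13-fold. Smad5, the closest relative of Smad1, did not pass the test, with 70.5 ± 2.74 and 71.0 ± 2.40 CPM (SD, n = 4) and a log2 fold change of 0.01. It was named after its values were seen.

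The targets of the 2 branches were read beside the members. Of 18 genes switched on by TGF-β through Smad3, 6 were higher and 10 lower, with a median log2 fold change of -0.15 beside 0.00 over all tested genes. These 16 calls among 18 genes stand beside 58.9% of all tested genes called. Among the contractile genes of the myofibroblast, Acta2 (smooth muscle actin) was 3.55-fold lower, from 2060 ± 74.1 to 581 ± 46.0 CPM, Cnn1 2.46-fold lower and Tagln 1.98-fold lower (SD, n = 4). The matrix protein Comp was 2.30-fold lower. Cnn1 and Comp were low, going from 4.22 ± 0.325 to 1.72 ± 0.153 CPM and from 4.75 ± 0.907 to 2.06 ± 0.108 CPM (SD, n = 4). In the same list Junb and Bhlhe40, transcription factors, rose 2.65-fold and 2.09-fold, and Thbs1, which activates latent TGF-β, rose 1.37-fold. The list therefore did not move in 1 direction.

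Of 8 genes switched on by BMP through Smad1 and its relatives, 6 were lower and 0 higher, all 6 past 1.5-fold, with a median log2 fold change of -0.83. Over all tested genes 29.9% were lower at any size, and 18.9% were called past 1.5-fold in either direction. Id4 fell 3.47-fold, Atoh8 2.96-fold, Id3 2.11-fold and Id1 1.88-fold, each a factor of the helix-loop-helix family. Atoh8 went from 22.5 ± 0.356 to 7.61 ± 0.716 CPM and Id3 from 50.4 ± 6.22 to 23.9 ± 1.84 CPM (SD, n = 4). Id4 was low, from 4.25 ± 0.446 to 1.22 ± 0.317 CPM (SD, n = 4), with at most 128 counts in a library. Its log2 fold change was -1.79 on counts and -0.66 in limma on log2(FPKM + 1), with the call kept. Msx1 and Msx2, with log2 fold changes of -0.11 and 0.20, did not pass the test. The sixth lower gene, Hey1, named after its values were seen, had only 0.813 ± 0.269 and 0.479 ± 0.113 CPM (SD, n = 4; adjusted p = 0.049 from edgeR). It lost its call under 11 of 16 alternatives, which left 5 genes lower. Smad6, at -1.58, lay within the range of the 6 lower genes. Of the SMADs that carry BMP signals, Smad1 and Smad5 did not pass the test, with log2 fold changes of 0.04 and 0.01, and Smad9 was lower, at -0.89. The receptors were split, with Bmpr1a lower, at -0.28, and Bmpr1b higher, at 0.98, while Bmpr2 and Acvr1, at 0.05 and 0.09, did not pass. The ligands Bmp4 and Bmp6 were lower, at -1.56 and -1.75, and Bmp2, Bmp5 and Bmp8a were higher, at 1.66, 1.32 and 0.58. The genes that were higher had the lower levels. Mean CPM went from 171 to 141 for Bmpr1a and from 8.39 to 16.6 for Bmpr1b. For Bmp4 and Bmp6 it went from 52.8 to 17.9 and from 102 to 30.4. For Bmp2, Bmp5 and Bmp8a it went from 4.25 to 13.4, from 0.951 to 2.37 and from 2.35 to 3.52. Except for Bmpr1a, these receptors and ligands were named after their values were seen.

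**Figure D4:**
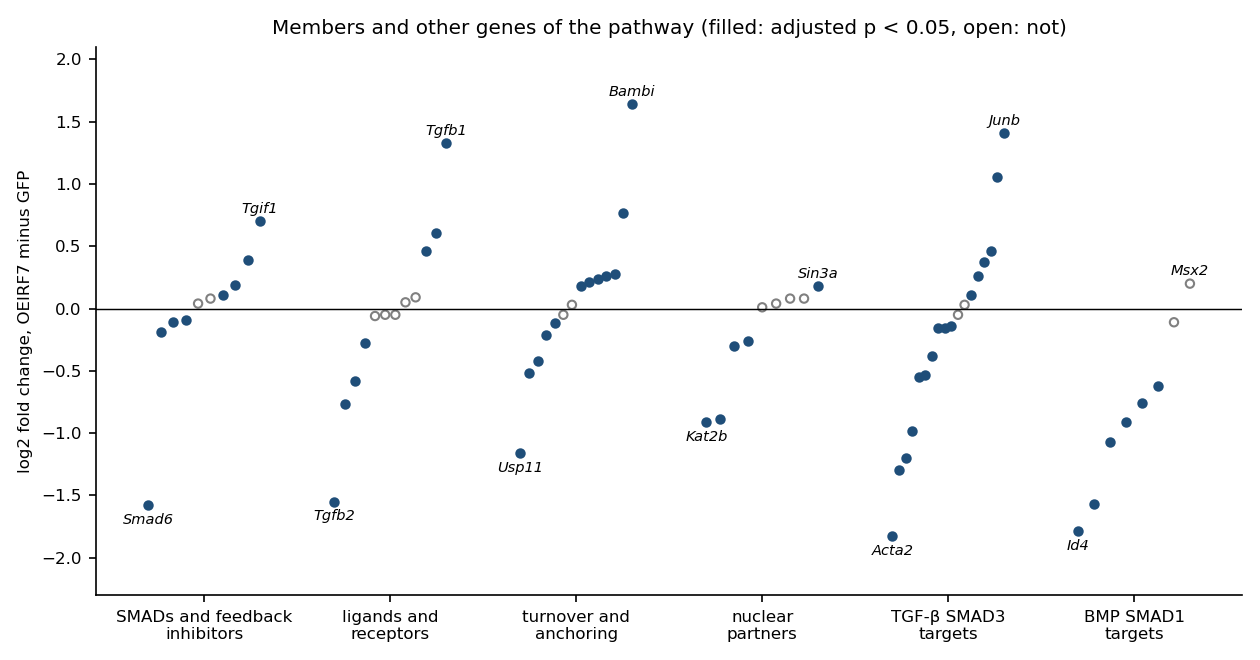
Log2 fold change, libraries labelled OEIRF7 minus those labelled GFP, of the members and of the other tested genes of the pathway in 5 lists; filled points had an adjusted p under 0.05 (edgeR) and open points did not, and the lowest and highest gene of each list is named. Called genes lie on both sides of 0 in every list except the BMP SMAD1 targets, in which the 6 called genes are all lower.

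The deposited table places 95 genes in the KEGG pathway of TGF-β signaling, of which 79 were tested, 28 higher and 29 lower. Thus 57 of 79 were called, against 58.9% of all tested genes, and 29 of 79 past 1.5-fold, against 18.9%. Without the members among them, 26 of 72 were higher and 26 lower, with a median log2 fold change of 0.00. Of these 72 genes, 27 were called past 1.5-fold, 15 higher and 12 lower. The KEGG list was added after the data were seen.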

How the data were processed

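RNA-seq of primary murine cardiac fibroblasts was analysed (4 libraries labelled GFP, 4 labelled OEIRF7). The authors trimmed reads with Trimmomatic, mapped them to GRCm38 with HISAT2 and deposited raw counts per gene from HTSeq-count, whose strand setting is not given in the sources used here. The authors also deposited FPKM from Cufflinks, rounded to 2 decimals. The group means, log2 ratio, p-value and FDR columns belong to their own comparison and were not used. Labels and paper differ on the viral vector (adeno-associated virus against adenovirus) and on the RNA kits. In the table, 121 symbols hold GFP in place of nc, and they were restored by Ensembl identifier (22219 of 22274 found in GENCODE M21).

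Counts were tested in R 4.3.3 with edgeR 4.0.16 (filterByExpr, TMM, glmQLFit, glmQLFTest, no covariates), with Benjamini-Hochberg adjustment over 13533 tested genes. Standard errors and 95% intervals come from the quasi-likelihood F statistic. TMM factors lay between 0.989 and 1.01, and log2 CPM used a prior count of 2. Exact two-sided permutation tests ran over libraries. Alternatives were DESeq2 1.42.0, other scalings and filters, a block for the replicate number, each library left out in turn, and limma 3.58.1 on FPKM after log2 with 1 or 0.1 added, for genes above 0.1 FPKM on average. The tests were tested on simulated data. Replicates of a group were compared by chi-square over genes, and every pair exceeded sampling noise (2.69 to 8.67 per degree of freedom).

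All members were named, and in each other list up to 4 called genes with the largest rise and 4 with the largest fall. Marker genes and some BMP genes were named beyond this rule. Of these, only the endothelial genes, Hey1 and Smad5 were repeated under the alternatives. The members and lists were chosen with earlier results of these data known. Promoters are RefSeq's (GRCm38.p6), found for 5 of 10 members. The values of 1 gene of the Smad3 target list are not reported here, although its call is in the list's counts.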

Additional observations from a re-analysis of the deposited data

Results flagged for a closer look

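Of 20 groups of 4 libraries tested (10 members in each of 2 groups), 1 held a library far from the others, and chance flags about 1 group in 20. Ski had 277 CPM in replicate 4 labelled GFP, while the other 3 libraries labelled GFP lay between 261 and 263 CPM. The gap was 0.857 of the range of that group. Replicate 4 labelled GFP still lay below the lowest library labelled OEIRF7, at 287 CPM.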

How the results depend on the processing

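The number of members called, 8, was 5 in limma on log2(FPKM + 1) and on log2(FPKM + 0.1), and lay between 6 and 8 when 1 library was left out. The number past 1.5-fold was 2 under all 16 alternatives. Of 160 repeats over the 10 members (16 alternatives each), 141 kept direction and call, 14 lost the call, 1 gained it and 4 turned round. The reversals were Smad2 (0.11 on both FPKM scales) and Pmepa1 (0.05 on both), and the cause was not tested. Smad2 lost its call under 11 alternatives, among them DESeq2 (adjusted p = 0.072). Smad3 lost it on both FPKM scales, Skil without replicate 1 labelled OEIRF7 (edgeR), and Smad4 gained it without scaling beyond library size (adjusted p = 0.039, edgeR). The 32 genes of the other lists chosen by the naming rule kept direction and call under all 16 alternatives. Outside that rule, Cdh5 lost its call under 8 alternatives, Hey1 lost it under 11 and Tie1 gained a call under 1. The uncalled genes Pecam1 and Smad5, both near 0, changed sign. Pecam1 was at 0.01 without scaling beyond library size, 0.02 on both FPKM scales, and -0.05 to 0.01 when 1 library was left out. Smad5 was at -0.02 to 0.03 when 1 library was left out. Smad6 stayed between -1.67 and -1.46, Tgif1 between 0.64 and 0.73 and Smad7 between 0.38 and 0.42 on the log2 scale.

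Replicate numbers are shared between the groups, but deviations of same-numbered libraries correlated at 0.0792, 0.0953, 0.138 and 0.104, over 0.1 in only 2 of 4 pairs, so the numbers were not taken to pair the libraries. Each library did correlate best with its own number, a hint from the data and not from the design. With the replicate block, 7 members were called in place of 8 (Smad2 had an adjusted p of 0.054, edgeR), and 8211 genes in place of 7969. For the ratios, 4 pairs allow no sign-flip p below 0.125. Low genes such as Usp11 and Cnn1 rest on few counts.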
